A study of Mus musculus with 8 samples.

Results

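B lineage marker genes were followed in bulk RNA sequencing of mouse liver. The 9 genes were taken by name from the deposited table of 56748 gene IDs: the immunoglobulin genes Ighd, Ighm and Igkc, the joining chain gene Jchain, and 5 other B cell genes, Pax5, Cd79a, Cd79b, Ms4a1 and Cd22. Each name matched 1 row, and all 9 genes were tested. The study compared 4 liver libraries labelled miR-93 knockout with 4 labelled wild type. All 8 came from mice on a high fat-high fructose diet, were labelled MASLD (metabolic dysfunction-associated steatotic liver disease) and had a time of 16 weeks. The labels give neither strain, sex nor the cells in which the microRNA was deleted. They also do not say that replicates were separate animals, so p-values measure the spread between libraries only.

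A B cell carries a receptor made of an immunoglobulin held in the membrane and a signalling pair encoded by Cd79a and Cd79b. Naive B cells make IgM and IgD together from 1 long transcript by alternative splicing, with Ighm and Ighd as its constant parts. After activation a B cell can switch to IgG, IgA or IgE and can become a plasma cell, which secretes antibody, turns off Pax5 and the CD20 gene Ms4a1, and makes Jchain to link IgM or IgA into polymers. The liver holds a modest population of both. In bulk tissue, fewer cells of a type and less RNA per cell cannot be told apart.

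The mature microRNA that the knockout is named for is shown here because it defines the groups. Its sequence is from RefSeq (GRCm38.p6, chr5:138165574-138165596, minus strand), and the capitals mark the seed, bases 2 to 8, with which a microRNA pairs to its targets.
miR-93-5p: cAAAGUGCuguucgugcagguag
The letters that pair with this seed, GCACTTT, were searched on the transcript strand of the 3′ UTR annotated for the gene, its longest where there are several. None of the 9 genes held them, against 14.6% of the 11587 tested genes with an annotated 3′ UTR. This says only that these letters are not in those windows. The deposited table lists Mir93 at 0 counts in all 8 libraries, so it does not check the knockout label.

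Depth and composition differed between the groups. Total counts ran from 9187279 to 10966019 in the knockout libraries and from 5085860 to 7451026 in the wild-type libraries. Mitochondrial genes took 8.08% to 15% of counts in knockout libraries and 25.4% to 77.8% in wild-type libraries. Wild-type replicate 4 stood apart with 77.8% mitochondrial counts and only 1131446 other counts. Values are therefore given as counts and as CPM, counts scaled to a common library size after TMM scaling (trimmed mean of M-values, which sets library sizes so that most genes do not differ). In wild-type replicate 4, 3 counts came to 1.69 CPM, against 0.219 to 0.455 CPM in the other 7 libraries.

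The immunoglobulin variable segments, which each B cell clone selects from a large set, were alike in 2 pairs of libraries. Over the 148 segments with any count, the counts of knockout replicates 2 and 4 correlated at r = 0.91, and those of wild-type replicates 1 and 3 at r = 0.92. In the other 26 pairs r lay between -0.07 and 0.43. Knockout replicates 2 and 4 held 565 and 527 segment counts, and wild-type replicates 1 and 3 held 1192 and 436. Knockout replicates 1 and 3 held only 59 and 82, and wild-type replicates 2 and 4 only 62 and 21. So few counts can lower r, and a low r with any of those libraries does not show that the segments differ. Between the count-rich libraries of unlike genotype r was 0.05 to 0.12. Segments share libraries and are similar in sequence, so r is given as a description. The kappa segment Igkv3-2 had 305 of 953 kappa segment counts in wild-type replicate 1 and 67 of 343 in wild-type replicate 3. It had 4 of 41 in wild-type replicate 2, 0 of 21 in wild-type replicate 4 and at most 1 in any knockout library. Igkv3-4 had 69 of 384 and 56 of 348 in knockout replicates 2 and 4. It had 5 of 54 in knockout replicate 3, 0 of 46 in knockout replicate 1 and at most 13 in any wild-type library. The heavy chain segment Ighv3-6 had 32 counts in each of knockout replicates 2 and 4 and at most 8 elsewhere. Ighv1-53 had 47 and 15 in wild-type replicates 1 and 3 and 14 in knockout replicate 4. In the libraries with few segment counts, low counts do not show that these segments are confined to a pair. A chi-square test over the 33 segments with at least 10 counts in knockout replicates 2 and 4 together gave 1.43 per degree of freedom and p = 0.0563. Wild-type replicates 1 and 3 differed by more than counting noise in this test, at 1.91 per degree of freedom over 33 segments (chi-square p = 0.00146). That was no lower than the 1.85 of wild-type replicates 2 and 3 over 15 segments. Over all genes knockout replicates 2 and 4 differed by more than counting noise, at 2.77 per degree of freedom, the lowest of the knockout pairs. Wild-type replicates 1 and 3 gave 5.38, the lowest of the wild-type pairs. Whether the libraries of a pair share an animal or a cage was not tested. Results are given below for 8 libraries and, where the call changes, also with each pair summed into 1 library (3 against 3).

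**Figure D1:**
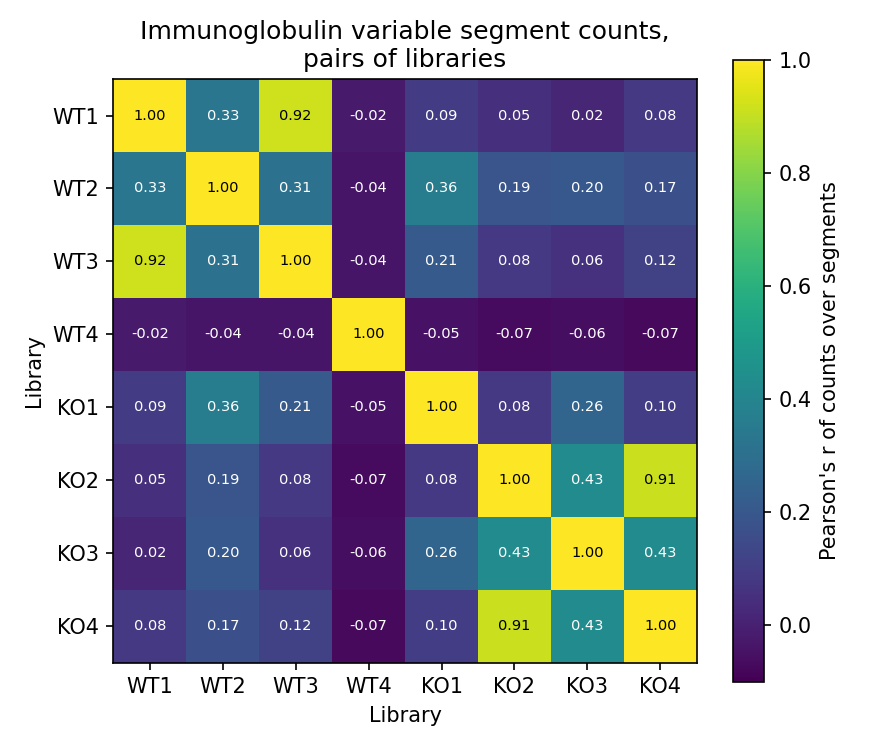
Pearson's r of immunoglobulin variable segment counts for each pair of libraries (WT, wild type; KO, knockout), over 148 segments; the colour and the printed number both give r. Wild-type replicates 1 and 3 and knockout replicates 2 and 4 reach 0.92 and 0.91, and no other pair is above 0.43. Knockout replicates 1 and 3 and wild-type replicates 2 and 4 held at most 82 segment counts each, which can lower their r.

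Of the 9 B lineage genes 6 fell in knockout livers. All 5 of the B cell genes other than immunoglobulin and J chain genes fell, by 4.62-fold to 10.8-fold, and so did Ighd, by 5.84-fold. Ighm, Igkc and Jchain did not pass the test, although their estimates were also below 0. In all, 6 of 9 genes were called lower by edgeR's quasi-likelihood test with Benjamini-Hochberg adjustment (adjusted p under 0.05), beside 10.7% of the 13204 genes tested, and none was called higher, beside 10.4%. The median log2 fold change was -2.45 over the 9 genes and -0.01 over all tested genes. In 5 genes every knockout library lay below every wild-type library, which held for 14% of all tested genes. These 5 were Ighd, Pax5, Cd79a, Cd79b and Cd22. Without wild-type replicate 4 the count was again 6, beside 17.5% of genes called lower. With the alike pairs summed it was 3, namely Ighd, Pax5 and Cd79a, beside 3.99%. Several genes passed the filter on low counts mainly through wild-type libraries: Pax5 and Ms4a1 reached its cutoff of 1.2 CPM, before TMM scaling, in 1 of 4 knockout libraries, Cd79a and Cd79b in 2 and Cd22 in 3.

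**Figure D2:**
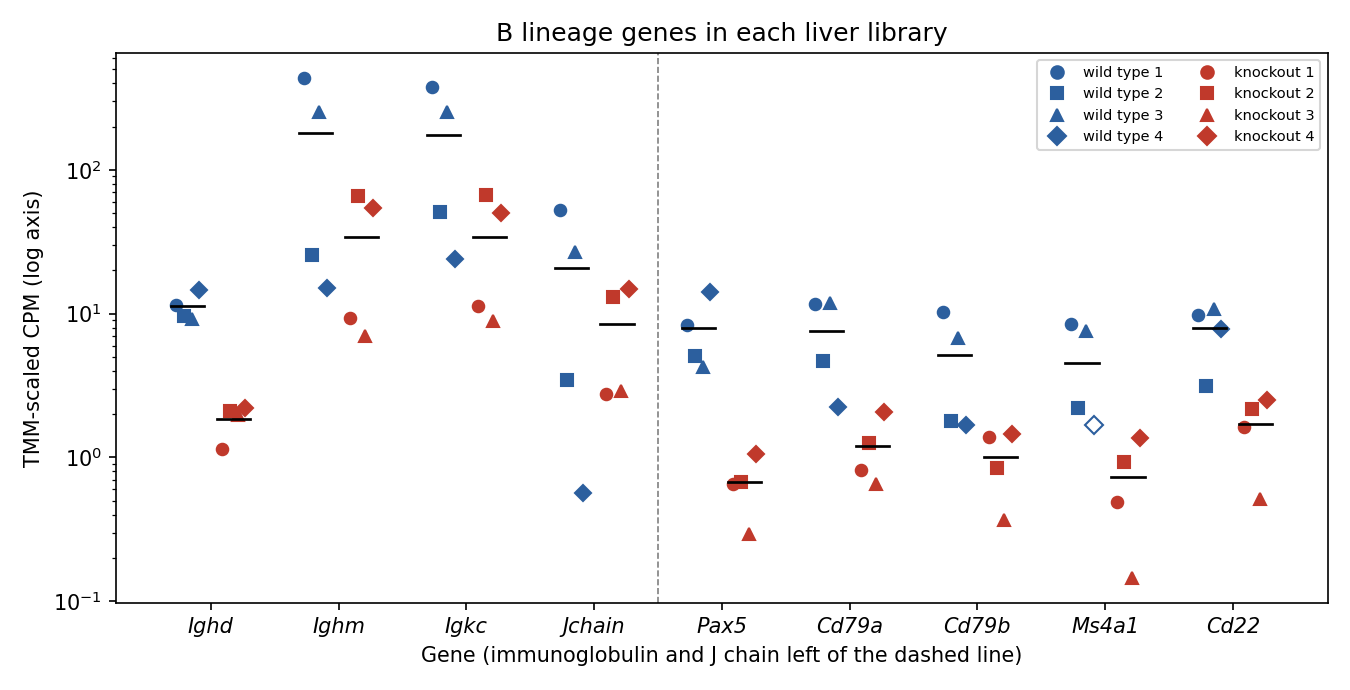
TMM-scaled CPM (log axis) of the 9 genes in each library; marker shape gives the replicate number, horizontal lines the group means, and the open diamond is the 0 count of Ms4a1 in wild-type replicate 4, drawn at that library's 3-count level of 1.69 CPM. Ighd and Pax5 separate the groups with a clear gap, while Ighm, Igkc and Jchain range widely within both groups.

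Ighd encodes the constant part of the IgD heavy chain, the receptor class of mature naive B cells. Its counts were 91, 70, 61 and 26 in wild-type replicates 1 to 4, or 11.5, 9.62, 9.25 and 14.6 CPM. In knockout replicates 1 to 4 they were 14, 25, 27 and 29, or 1.14, 2.10, 1.97 and 2.21 CPM. The groups did not overlap, and the spread within each was small, with a coefficient of variation of 21.8% in wild type and 26.2% in knockout. The log2 fold change was -2.55 ± 0.26 (SE, n = 4 and 4, edgeR adjusted p = 8.11e-05), a 5.84-fold fall with a 95% interval of 3.92 to 8.70. Ighd had the narrowest interval of the 9 genes, and it was called lower under every alternative run.

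Ighm, the IgM heavy chain gene, lies in 1 transcription unit with Ighd on chromosome 12, but its levels were far more uneven. Its CPM in wild-type replicates 1 to 4 was 435, 25.4, 251 and 15.2. In knockout replicates 1 to 4 it was 9.36, 66.1, 7.01 and 54.6. Wild-type replicates 1 and 3 were the highest of all libraries, knockout replicates 2 and 4 lay above wild-type replicates 2 and 4, and so the groups overlapped. The range within wild type was 28.7-fold and within knockout 9.42-fold. Ighm had a log2 fold change of -2.43 ± 1.07 (SE, n = 4 and 4, edgeR adjusted p = 0.135). Its 95% interval, a 1.03-fold to 28.2-fold fall, was too wide to give a size. Without wild-type replicate 1 the log2 fold change of Ighm was -1.54.

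Igkc, the kappa light chain constant gene on chromosome 6, had the same 3 highest libraries as Ighm. Wild-type replicates 1 to 4 held 377, 50.6, 252 and 24.2 CPM. Knockout replicates 1 to 4 held 11.3, 67.1, 8.91 and 50.2 CPM. As for Ighm, knockout replicates 2 and 4 lay within the wild-type range. Igkc had a log2 fold change of -2.37 ± 0.90 (SE, n = 4 and 4, edgeR adjusted p = 0.0899), and without wild-type replicate 1 it was -1.69.

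Jchain, the plasma cell gene of the set, had the widest range within wild type of the members without a 0 count, which leaves out Ms4a1. In knockout Ighm, Ms4a1 and Igkc ranged more widely. Jchain had 417, 25, 177 and 1 counts in wild-type replicates 1 to 4, which came to 52.7, 3.44, 26.9 and 0.562 CPM. It had 34, 156, 40 and 196 counts in knockout replicates 1 to 4, or 2.77, 13.1, 2.92 and 14.9 CPM. The lowest library was thus a wild-type one, at 1 count in the library of least depth. Jchain had a log2 fold change of -1.43 ± 0.88 (SE, n = 4 and 4, edgeR adjusted p = 0.276), with a 95% interval from -3.41 to 0.54. A difference in either direction was therefore within the error, and without wild-type replicate 1 the value was -0.47.

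Pax5, the transcription factor that commits cells to the B lineage and is shut off in plasma cells, had the largest fall of the 9. Wild-type replicates 1 to 4 held 66, 37, 28 and 25 counts, or 8.34, 5.09, 4.25 and 14.1 CPM. Knockout replicates 1 to 4 held 8, 8, 4 and 14 counts, or 0.651, 0.673, 0.292 and 1.07 CPM. The lowest wild-type library was above the highest knockout library. For Pax5 the log2 fold change was -3.43 ± 0.47 (SE, n = 4 and 4, edgeR adjusted p = 0.000606), a 10.8-fold fall with a 95% interval of 5.24 to 22.2. Like Ighd, Pax5 was at its highest TMM-scaled CPM in wild-type replicate 4, although both had their lowest wild-type count there. That ranking rests on the TMM factor of this library, 0.35, the lowest of all libraries.

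Cd79a and Cd79b encode the Ig alpha and Ig beta chains that carry the signal of the B cell receptor. Cd79a had 11.6, 4.67, 11.8 and 2.25 CPM in wild-type replicates 1 to 4 and 0.814, 1.26, 0.657 and 2.05 CPM in knockout replicates 1 to 4. Its groups did not overlap, but the nearest libraries were close: wild-type replicate 4 rested on 4 counts. The log2 fold change of Cd79a was -2.75 ± 0.49 (SE, n = 4 and 4, edgeR adjusted p = 0.00291). Cd79b had 10.2, 1.79, 6.83 and 1.69 CPM in wild-type replicates 1 to 4 and 1.38, 0.841, 0.365 and 1.45 CPM in knockout replicates 1 to 4. Its groups were separated by a narrow margin, with 3 counts in wild-type replicate 4 and 13 in wild-type replicate 2. The log2 fold change of Cd79b was -2.45 ± 0.59 (SE, n = 4 and 4, edgeR adjusted p = 0.0149). The call on Cd79b was lost without knockout replicate 2 (edgeR adjusted p = 0.0554), without wild-type replicate 1 (0.0559) and with the alike pairs summed (0.0981).

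Ms4a1 encodes CD20, a membrane protein of B cells that plasma cells lack. It had 67, 16, 50 and 0 counts in wild-type replicates 1 to 4, the first 3 of them at 8.46, 2.20 and 7.59 CPM. It had 6, 11, 2 and 18 counts in knockout replicates 1 to 4, or 0.489, 0.926, 0.146 and 1.37 CPM. The other 3 wild-type libraries were above all knockout libraries, while a count of 0 in wild-type replicate 4 allows up to 1.69 CPM. The log2 fold change was -2.78 ± 0.73 (SE, n = 4 and 4, edgeR adjusted p = 0.0209), a fitted value that rests partly on that 0. Without wild-type replicate 4 it was -3.04 ± 0.51 (edgeR adjusted p = 0.00016). Of the 6 calls that on Ms4a1 was lost most often when 1 library was left out. This happened for knockout replicates 1, 2 and 3 and for wild-type replicates 1 and 3, at edgeR adjusted p from 0.0614 to 0.0666, and also with the alike pairs summed (0.116).

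Cd22, a lectin that binds sialic acid and dampens receptor signalling, had 9.85, 3.16, 10.8 and 7.87 CPM in wild-type replicates 1 to 4. In knockout replicates 1 to 4 it had 1.63, 2.19, 0.511 and 2.51 CPM. The groups did not overlap, with wild-type replicate 2 nearest to the knockout libraries. For Cd22 the log2 fold change was -2.21 ± 0.47 (SE, n = 4 and 4, edgeR adjusted p = 0.00805). With the alike pairs summed it was -2.18 ± 0.59 and not called (edgeR adjusted p = 0.0616).

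**Figure D3:**
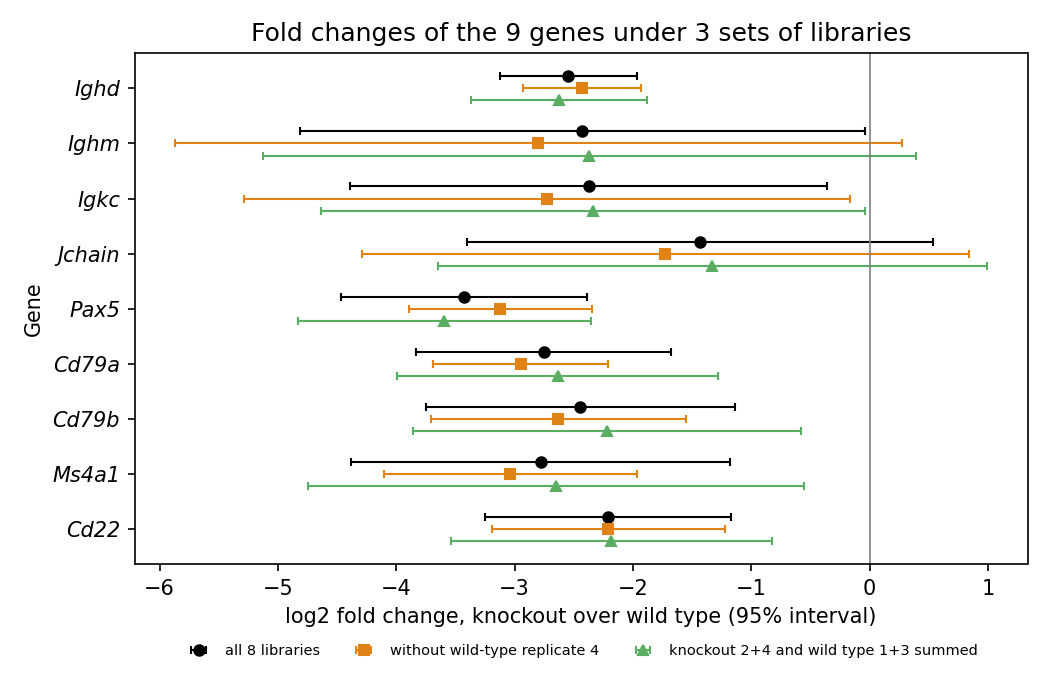
log2 fold change (knockout over wild type, edgeR) of the 9 genes with 95% intervals, for all 8 libraries (circles), without wild-type replicate 4 (squares) and with knockout replicates 2 and 4 and wild-type replicates 1 and 3 each summed (triangles). All estimates are below 0. The interval of Jchain reaches above 0 in every fit, and that of Ighm in the latter 2.

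The RefSeq promoter table held 4 of the 9 genes: Pax5, Jchain, Cd79a and Cd22. Windows from 250 bases before to 50 bases after the start (GRCm38.p6) were searched on both strands for the octamer ATGCAAAT, bound by OCT factors and their B cell coactivator, and for CCCNNGGG, the core of the site of EBF1, an early B cell factor. The octamer was in none of the 4, against 1.74% of 32851 promoters. CCCNNGGG was in Cd22 alone, beginning 48 bases before the start, against 13.7% of promoters. The Cd22 window (chr7:30878979-30879278, minus strand) is printed because it was the only match, and the capitals mark it.
Cd22 promoter: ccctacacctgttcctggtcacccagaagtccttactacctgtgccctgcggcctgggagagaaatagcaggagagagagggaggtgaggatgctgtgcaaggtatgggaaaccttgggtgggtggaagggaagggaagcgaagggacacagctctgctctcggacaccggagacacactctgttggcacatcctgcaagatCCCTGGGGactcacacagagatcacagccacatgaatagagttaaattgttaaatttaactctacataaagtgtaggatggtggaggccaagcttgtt
A match is a description of the letters and not of binding.

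Summing the members by role showed how the libraries arranged themselves. The summed level of Pax5, Cd79a, Cd79b, Ms4a1 and Cd22 was 48.5, 16.9, 41.3 and 25.9 CPM in wild-type replicates 1 to 4 and 4.97, 5.89, 1.97 and 8.45 CPM in knockout replicates 1 to 4. On this sum the groups did not overlap. The summed level of Ighd, Ighm, Igkc and Jchain was 876, 89.1, 539 and 54.5 CPM in wild-type replicates 1 to 4 and 24.6, 148, 20.8 and 122 CPM in knockout replicates 1 to 4. On this sum knockout replicates 2 and 4 exceeded wild-type replicates 2 and 4. The log2 ratio of the immunoglobulin sum to the other sum was 3.55 ± 0.98 (SD, n = 4) in knockout and 2.84 ± 1.40 (SD, n = 4) in wild type. The groups differed by less than their spread. As a share of all counts, the immunoglobulin sum averaged 0.0101% ± 0.0085 in knockout and 0.0399% ± 0.0428 in wild type (SD, n = 4 each), and the other sum 0.000678% ± 0.000345 and 0.00300% ± 0.00204. Without wild-type replicate 1 the wild-type mean of the immunoglobulin sum was 0.0222%. As a share of counts outside the mitochondrial genome, the immunoglobulin sum averaged 0.0112% ± 0.0092 in knockout and 0.0561% ± 0.0556 in wild type, and the other sum 0.000758% ± 0.000374 and 0.00487% ± 0.00194 (SD, n = 4 each).

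**Figure D4:**
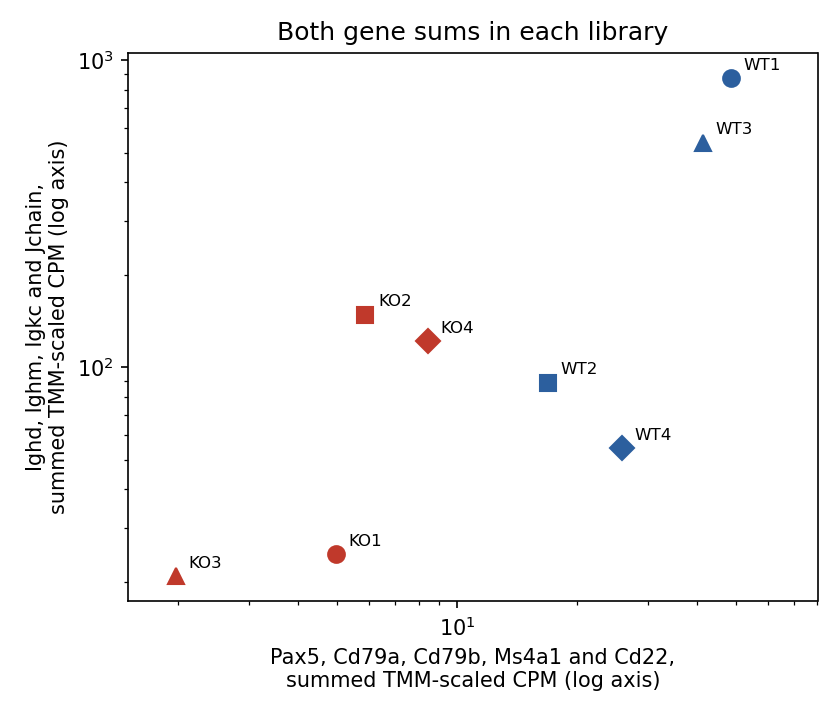
Summed TMM-scaled CPM of Ighd, Ighm, Igkc and Jchain (vertical, log axis) against that of Pax5, Cd79a, Cd79b, Ms4a1 and Cd22 (horizontal, log axis), 1 point per library (WT, wild type; KO, knockout). The groups separate along the horizontal axis, between 8.45 and 16.9 CPM, and overlap along the vertical axis.

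Ratios between members within a library need no scaling. The ratio of Ighd to Ighm counts was 0.0264, 0.378, 0.0369 and 0.963 in wild-type replicates 1 to 4 and 0.122, 0.0318, 0.281 and 0.0404 in knockout replicates 1 to 4. It was low in the 4 libraries rich in Ighm, of both genotypes. Ighm is the denominator and ranged more widely than Ighd, so this partly follows from how the ratio is built. The mean log2 ratio was -3.62 ± 1.46 in knockout and -2.87 ± 2.54 in wild type (SD, n = 4 each; exact two-sided permutation p = 0.629). The log2 ratio of Igkc to Ighm was 0.13 ± 0.22 and 0.37 ± 0.56, and that of Cd79b to Cd79a -0.29 ± 0.72 and -0.69 ± 0.53 (exact two-sided permutation p = 0.486 for each). After adjustment over these 3 ratios each permutation p was 0.629.

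With each genotype's mean removed, the members were grouped by how they varied among libraries, after the values were seen. Ighm, Igkc, Jchain, Cd79a, Cd79b and Ms4a1 varied together, with r from 0.79 to 0.99 over their 15 pairs (8 libraries, log2 CPM). Ighd and Pax5 did not vary with these 6, with r from -0.36 to 0.06 over 12 pairs. That contrast rested on wild-type replicate 4, where Ighd and Pax5 were high and the others low. Over the 7 libraries without it, r of Ighd or Pax5 with the 6 ran from -0.03 to 0.71. There r of Cd22 with the 6 rose from between 0.40 and 0.73 to between 0.85 and 0.98. Ighd and Pax5 correlated with each other at r = 0.53 over 8 libraries and at 0.27 over these 7. All pairs share libraries and depth, and the 2 alike pairs weigh on each r.

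Of the 13 other immunoglobulin constant and surrogate light chain genes listed, 5 were tested, and 2 of these, Ighg1 and Igha, were lower in knockout. Ighg1 encodes the heavy chain of IgG1, and its counts were 454, 48, 209 and 4 in wild-type replicates 1 to 4 and 8, 39, 3 and 20 in knockout replicates 1 to 4. Its log2 fold change was -4.23 ± 0.91 (SE, n = 4 and 4, edgeR adjusted p = 0.0108). Igha, the IgA heavy chain, changed less, by -0.64 ± 0.18 (SE, edgeR adjusted p = 0.0256), from 13.9 ± 2.9 CPM in wild type to 9.18 ± 0.88 CPM in knockout (SD, n = 4 each). Every knockout library held 111 to 123 counts of Igha. The call on Ighg1 held with each library left out and, narrowly, with the alike pairs summed (edgeR adjusted p = 0.0483). It was lost with no filter on low counts (edgeR adjusted p = 0.0776), with the replicate number as a block (0.0616) and with the pairs summed and wild-type replicate 4 left out (0.107). That on Igha was lost when knockout replicate 2, 3 or 4 was left out, and likewise for wild-type replicates 1 and 3 (edgeR adjusted p from 0.0682 to 0.0903), and with the alike pairs summed (0.155). Ighg2b (-1.26 ± 0.90, edgeR adjusted p = 0.350), Ighg2c (-0.46 ± 1.12, 0.809) and Ighg3 (-0.10 ± 1.00, 0.962) were not called. Ighe, the IgE heavy chain, was not tested. It had 34 counts in wild-type replicate 1, 5 in wild-type replicate 3 and 0 elsewhere.

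Ighg1 took a smaller share of IgG counts in each knockout library than in each wild-type library. It was 45.9% (95% exact binomial interval 42.8 to 49.1), 39.3% (30.6 to 48.6), 42.9% (38.5 to 47.4) and 33.3% (9.92 to 65.1) of the Ighg1, Ighg2b, Ighg2c and Ighg3 counts in wild-type replicates 1 to 4. In knockout replicates 1 to 4 it was 24.2% (11.1 to 42.3), 7.10% (5.10 to 9.58), 13% (2.78 to 33.6) and 4.2% (2.59 to 6.41). Only 12 IgG counts stood behind wild-type replicate 4, and 33 and 23 behind knockout replicates 1 and 3. The intervals cover counting error only, and the sources used here do not say how reads shared by these similar genes were assigned. Knockout replicates 2 and 4 held 226 and 184 counts of Ighg2c and 117 and 94 of Ighg3, against 3 and 8 and 3 and 1 in knockout replicates 1 and 3. Igha took 43.2% of heavy chain counts in each of knockout replicates 1 and 3, and 7.86% and 8.67% in knockout replicates 2 and 4. Of the 348 variable segments in the table only 3 were tested. None of the 3 was called by edgeR or had an unadjusted p under 0.05.

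**Figure D5:**
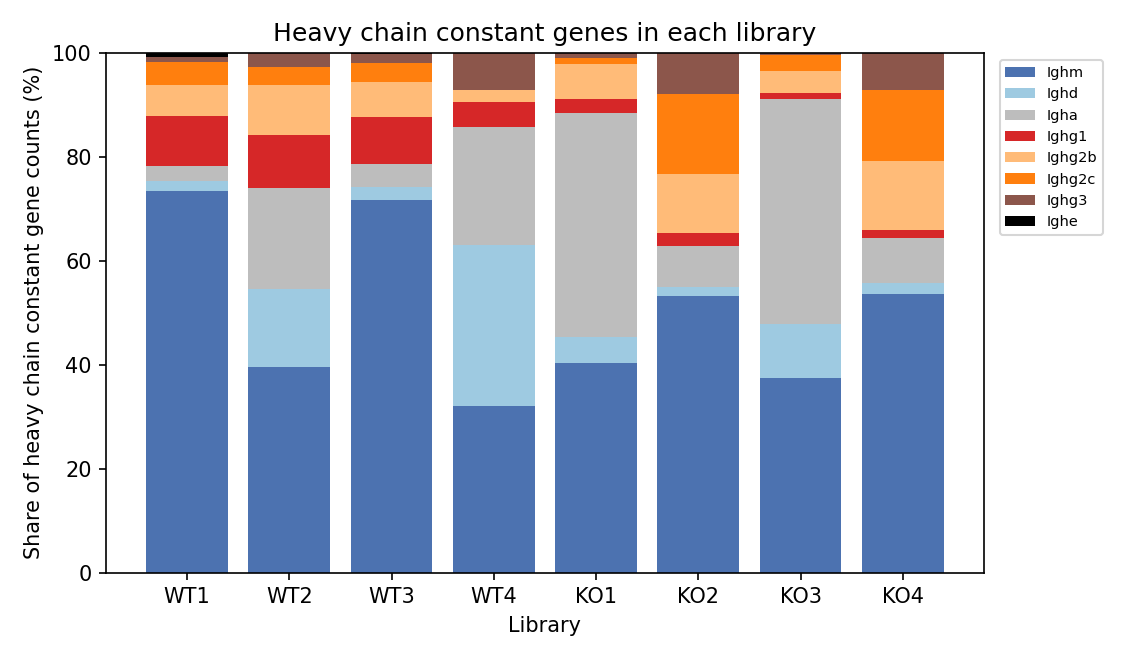
Share of heavy chain constant gene counts (%) taken by each gene, 1 stacked bar per library (WT, wild type; KO, knockout); shares are of counts and not per length. Ighm takes 73.4% and 71.6% in wild-type replicates 1 and 3, Igha takes 43.2% in knockout replicates 1 and 3, and Ighg2c takes 15.3% and 13.8% in knockout replicates 2 and 4.

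Of 20 tested genes of B cell receptor signalling, 3 were lower and 1 higher, with a median log2 fold change of -0.37. These shares, 15% and 5%, lie near the 10.7% and 10.4% of all tested genes. Syk, the kinase bound by Cd79a and Cd79b (-0.80 ± 0.22, edgeR adjusted p = 0.0254), the adaptor Dok3 (-0.80 ± 0.25, 0.0400) and the kinase Blk (-1.45 ± 0.47, 0.0478) fell. Cd81, a tetraspanin that hepatocytes also express, rose by 0.48 ± 0.14 (edgeR adjusted p = 0.0346). Which cells gave the RNA of the 3 genes that fell is likewise not shown by bulk tissue. The calls on Syk, Dok3, Blk and Cd81 were each lost when any of several single libraries was left out, with an edgeR adjusted p of up to 0.0816, 0.12, 0.118 and 0.107. None of the 4 was called with the alike pairs summed (edgeR adjusted p = 0.144, 0.149, 0.142 and 0.128).

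Of 12 tested B lineage transcription factors, 5 fell (41.7%) and 2 rose (16.7%), with a median of -0.60. Those that fell were Tcf3 (-0.93 ± 0.20, edgeR adjusted p = 0.00905), Spib (-2.28 ± 0.56, 0.0153), the octamer coactivator Pou2af1 (-3.01 ± 0.75, 0.0162), Irf8 (-0.66 ± 0.19, 0.0335) and Ebf1 (-1.79 ± 0.53, 0.0341). Foxo1 (0.45 ± 0.12, edgeR adjusted p = 0.0224) and Id3 (0.45 ± 0.13, 0.0360) rose. Both are also expressed outside the B lineage. For the genes that fell, too, bulk tissue does not show which cells gave the RNA. In wild type Tcf3 averaged 38.6 CPM, Irf8 11.2, Pou2af1 7.52, Spib 3.86 and Ebf1 2.48, against 7.93 for the member Pax5. Of these 5 falls and 2 rises only the call on Tcf3 held with each library left out. For the other 6 the edgeR adjusted p then reached 0.061 (Spib) to 0.11 (Irf8). Tcf3 with the alike pairs summed was called (edgeR adjusted p = 0.0472) and the other 6 were not, at 0.0839 (Spib) to 0.139 (Ebf1). Of 15 tested surface and homing genes, 6 fell (40%) and 1 rose (6.67%), with a median of -1.06. The smallest p-values were those of H2-Ob, a part of the H2-O regulator of antigen loading in B cells (-2.39 ± 0.30, edgeR adjusted p = 0.000311), Siglecg, an inhibitory lectin related to Cd22 (-2.44 ± 0.35, 0.000771), and the tetraspanin Cd37 (-1.65 ± 0.27, 0.00184). The others that fell were Fcer2a, Ltb and Cxcr5, and Cd38 rose by 0.90 ± 0.24 (0.0227). With each library left out in turn the calls on Cxcr5 and Cd38 were lost at least once (edgeR adjusted p up to 0.0666 and 0.0772), and the other 5 held. With the alike pairs summed Cxcr5 (edgeR adjusted p = 0.0853), Cd38 (0.0805) and Fcer2a (0.0569) were not called.

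The tested genes of the plasma cell list moved both ways. Of these 9 genes 3 were higher (33.3%) and 2 lower (22.2%), with a median of -0.16. The rest of the 14 listed, Mzb1, Prdm1, Irf4, Tnfrsf17 and Slamf7, had at most 15 counts in any library and were not tested. Derl3 rose from 2.04 ± 1.07 to 8.55 ± 0.94 CPM (SD, n = 4 each), a log2 fold change of 1.95 ± 0.31 (SE, edgeR adjusted p = 0.00146). Xbp1 rose by 0.67 ± 0.14 (edgeR adjusted p = 0.00583) and Creld2 by 0.94 ± 0.30 (0.0465). All 3 serve protein folding and secretion and are also expressed by hepatocytes. Sdc1, a proteoglycan abundant on hepatocytes, fell by 0.73 ± 0.15 on the log2 scale (edgeR adjusted p = 0.00568), and Pou2af1 fell as given above. Of 9 tested MHC class II genes, which macrophages and dendritic cells share, H2-Ob and H2-DMb1 (-1.30 ± 0.33, edgeR adjusted p = 0.0182) fell, while H2-DMb2 was at -1.56 ± 0.54 (0.0629). The calls on Derl3, Xbp1 and Sdc1 held with each library left out, and those on Creld2 and H2-DMb1 did not (edgeR adjusted p up to 0.141 and 0.063). After summing the alike pairs Xbp1 (edgeR adjusted p = 0.0614), Creld2 (0.211), Pou2af1 (0.109) and H2-DMb1 (0.11) were not called.

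The 6 genes outside the members whose levels ran most like the mean profile of Pax5, Cd79a, Cd79b, Ms4a1 and Cd22 were Rpp38, Swap70, Cxcr4, Napg, Ighg1 and Ifi209. Pearson's r over the 8 libraries was, in that order, 0.97, 0.97, 0.96, 0.96, 0.96 and 0.95. With genotype means removed it was 0.89, 0.91, 0.93, 0.87, 0.91 and 0.84. These values describe 8 libraries that share the genotype difference and include the alike pairs.

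Some markers of other cells also differed between genotypes, beside 10.7% of all tested genes lower and 10.4% higher. Of 8 tested T cell markers 3 were lower (37.5%): Trac (-1.29 ± 0.40, edgeR adjusted p = 0.0401), Cd4 (-1.47 ± 0.46, 0.0439) and Trbc2 (-1.13 ± 0.36, 0.0464). The summed T cell level over all 13 listed ran from 9.86 to 13.4 CPM in knockout and from 16.9 to 28.0 CPM in wild type. The NK cell list had 1 tested gene, Klrk1, which was lower (-1.74 ± 0.51, edgeR adjusted p = 0.0326). Of 4 tested dendritic cell markers only Itgax was lower (25%, -1.67 ± 0.35, edgeR adjusted p = 0.00706). Kupffer cell and macrophage markers went the other way, with 6 of 11 higher (54.5%) and none lower. C1qc rose by 1.66 ± 0.26 (edgeR adjusted p = 0.00139) and Marco by 1.47 ± 0.29 (0.00475). Their summed levels overlapped, at 173 to 212 CPM in knockout and 67.7 to 229 CPM in wild type. Of 8 sinusoidal endothelial markers 6 were higher (75%), led by Oit3 (1.76 ± 0.27, edgeR adjusted p = 0.00115) and Lyve1 (2.11 ± 0.32, 0.0012). Their summed levels ran from 106 to 211 CPM in knockout and from 62.8 to 84.9 CPM in wild type. With each library left out, the calls on Itgax, C1qc, Marco, Oit3 and Lyve1 held, while those on Trac, Cd4, Trbc2 and Klrk1 were lost at least once (edgeR adjusted p up to 0.13, 0.126, 0.121 and 0.101). With the alike pairs summed those 4 (edgeR adjusted p = 0.144, 0.128, 0.166 and 0.105) and Itgax (0.0501) were not called.

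Fgb and Apob were higher (25%) and Alb lower (12.5%) among 8 hepatocyte markers, the latter near the 10.7% of all tested genes. Col3a1 and Col1a1 were lower among 7 stellate cell and fibroblast markers (28.6%). Alas2 and Hba-a2 were lower among 5 erythroid markers (40%), and Spp1 was higher among 2 cholangiocyte markers (50%). With so few tested genes per list these shares are coarse. After summing the alike pairs Alb (edgeR adjusted p = 0.183), Apob (0.183), Col1a1 (0.102), Hba-a2 (0.104) and Spp1 (0.0953) were not called. Neither of the 2 tested neutrophil markers and neither of the 2 tested markers of spleen and lymph node stroma was called. Of the 6 stroma markers listed, Tlx1, Nkx2-5 and Madcam1 were at 0 in all libraries, while Cxcl13 had 16 to 39 counts in knockout and 0 to 10 in wild type, Ccl21a 28 to 35 and 0 to 27, and Ccl19 2 to 13 and 2 to 45. Of the 7 pancreatic genes listed, Prss2, Cpa1, Pnlip and Amy2a5 were at 0 in all libraries, and Cpb1, Cela2a and Ctrb1 had at most 1 count in any. The part of these other cells, of depth and of the mitochondrial share in the B lineage differences was not tested.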

How the data were processed

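The deposited table holds raw whole-number counts per Ensembl gene for 8 liver libraries. The authors trimmed with cutadapt 4.2, aligned with STAR 2.7.10a and used build mm39, per the submitters' processing notes. The counting tool, annotation, strand setting and treatment of reads that map to several places are not given in the sources used here, and they bear on the similar immunoglobulin genes. Symbols matched 52073 of 56748 IDs. Counts were filtered (filterByExpr, minimum count 10), scaled by TMM and tested in edgeR 4.0.16 (R 4.3.3) by robust quasi-likelihood, two-sided, with adjustment over 13204 genes. The script was tested on simulated data. CPM uses TMM library sizes, and log2 CPM for correlations a prior count of 2. Ratios used exact permutation tests over 70 assignments (scipy 1.17.1).

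The members and lists were chosen with earlier results of these data known. A listed gene is not reported here and was left out of the list counts. Named genes are the 9 members, up to 3 of smallest p per B lineage list, up to 2 per marker list and the 6 most alike profiles. Ighg2c, Ighg3, Ighe, the named variable segments and the other genes behind small counts were named after their values were seen. 3′ UTRs came from GENCODE M21 (GRCm38) and sequences from RefSeq GRCm38.p6. Other scalings, filters, tests (DESeq2 1.42.0, limma 3.58.1), libraries left out and summed pairs were run as alternatives. Whether replicate numbers pair the libraries was not settled, and the main test leaves the numbers out.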

Additional observations from a re-analysis of the deposited data

How the results depend on the processing

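All 9 members were below 0 under each alternative run. Ighd was called lower under each of them and Pax5 under each that tested it, while Ighm, Igkc and Jchain passed under none. Of the 166 values of members under alternatives, 17 lost a call. With library size alone, which raised the median gene by 0.54 on the log2 scale, Cd79a (-2.30), Cd79b (-1.99), Ms4a1 (-2.35) and Cd22 (-1.66) were not called, leaving 2 members, and 124 genes were lower and 561 higher. There the values of Ighg3 (0.43), Napg (0.040) and Alb (0.013) turned sign. Without a filter on low counts Ms4a1 (-2.73) was not called. With the alike pairs summed, an alternative chosen after seeing the data, 3 members were called, Cd79b (-2.22), Ms4a1 (-2.65) and Cd22 (-2.18) were not, and 547 genes were lower and 534 higher. When wild-type replicate 4 was also left out, leaving 3 knockout and 2 wild-type libraries, 6 were called again. Calls rose over all genes too, to 1900 lower and 1991 higher of 14361 tested. Thinning to 1131446 counts left 1 member called, with the 5 other B cell genes not tested, and gave 841 genes lower and 782 higher.

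Same-numbered libraries did not deviate together (r from -0.19 to -0.03). Differently numbered libraries were not compared, so this does not settle whether the numbers pair them. With the replicate block, Cd79b (-2.25) and Ms4a1 (-2.59) were not called, and 624 genes were lower and 643 higher.

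With 1 library left out, Cd79b ran from -2.77 to -1.86, Ms4a1 from -3.26 to -2.35, Ighm from -2.95 to -1.54, Igkc from -2.92 to -1.69, Jchain from -1.84 to -0.47, Ighg2c from -1.20 to 0.51 and Ighg3 from -0.87 to 0.33. Between 4 and 6 members, 728 to 2407 genes lower and 760 to 2446 higher were then called, the highest counts without wild-type replicate 4. Of 47 named genes outside the members that were called, 18 held with each library left out and 15 with the pairs summed. Causes were not tested. Depth limits the low members most: 3 counts in wild-type replicate 4 equal 1.69 CPM.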
